A study of Arabidopsis thaliana with 12 samples.

Results

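The genes described here are those whose induction by abscisic acid (ABA) in germinating Arabidopsis thaliana seeds was smaller in both lines carrying an artificial microRNA against SPLAYED (SYD) than in the control line. Expression was taken as CPM, the count divided by the library total and scaled by 1e6, averaged over the 2 libraries of a group, and the response R of a line was log2(mean CPM + 0.5) with ABA minus the same without it. A member had R of 1 or more in the control line, an R at least 0.8 lower in each SYD line, and a mean of 2 CPM or more on ABA in the control line. Of 36795 genes in the count table, 704 met the conditions on the control line alone and 69, or 9.8% of these, were members. The members were chosen by the ABA response in each line and by its difference between the SYD lines and the control, so these values are a description. No p-value is given for them, and counts of members passing a test in these contrasts describe the choice and support nothing. Both SYD lines were set against the same control libraries. The rule did not compare the SYD lines with each other, and this comparison is tested. The rule did limit the response of each SYD line, which bears on how alike the lines could be.

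RNA came from whole seeds of the lines amiR-HsMYO (labelled the wild-type control), amiR-SYD-1 and amiR-SYD-2. All were kept for 3 days at 4 °C in the dark and then held for 24 h, with 16 h of light and 8 h of dark, on medium with 2 µM (±)-ABA or with 0.002% ethanol. Each of the 6 groups had 2 biological replicates, so there were 12 libraries in all. All 3 lines carry an artificial microRNA, and nothing in the sources used here states its promoter or how many insertions each line stands for. The reads come from embryo, endosperm and seed coat together, so fewer cells of a type and less RNA per cell cannot be told apart.

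ABA is the hormone that holds seeds in the maturation and dormancy programme. Its receptors, when bound, block the clade A protein phosphatases 2C (PP2Cs), which frees SnRK2 kinases to phosphorylate bZIP factors such as ABI5, and these bind promoter elements with the core ACGTG. SYD is the ATPase of a SWI/SNF complex that moves nucleosomes, and BRAHMA (BRM) is a related ATPase of the same family.

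The promoters of 4 members are shown because the ABA element is where the hormone pathway meets a gene, and because they cover both ways in which a member came to be chosen: GEA6 and KIN1 were lower in the SYD lines on ABA, whereas HAI2 and ADH1 were higher in the SYD lines in ethanol. Each is the 250 bases before the annotated start, read 5′ to 3′ on the gene's strand from the TAIR10.1 reference, with ACGTG on either strand (CACGT where it lies on the other strand) in capitals. The stretches are chr2:16780369-16780618 (minus strand) for GEA6, chr5:5209467-5209716 (plus strand) for KIN1, chr1:2282829-2283078 (minus strand) for HAI2 and chr1:28975005-28975254 (plus strand) for ADH1.
GEA6: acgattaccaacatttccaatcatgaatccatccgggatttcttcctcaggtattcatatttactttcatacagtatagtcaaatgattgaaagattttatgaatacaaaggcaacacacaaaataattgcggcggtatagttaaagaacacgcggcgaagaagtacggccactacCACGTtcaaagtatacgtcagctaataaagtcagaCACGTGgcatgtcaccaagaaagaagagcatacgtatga
KIN1: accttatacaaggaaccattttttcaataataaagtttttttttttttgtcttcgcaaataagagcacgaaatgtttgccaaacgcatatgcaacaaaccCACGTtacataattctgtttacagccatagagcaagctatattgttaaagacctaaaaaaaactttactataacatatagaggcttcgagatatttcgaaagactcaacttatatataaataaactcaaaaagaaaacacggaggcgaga
HAI2: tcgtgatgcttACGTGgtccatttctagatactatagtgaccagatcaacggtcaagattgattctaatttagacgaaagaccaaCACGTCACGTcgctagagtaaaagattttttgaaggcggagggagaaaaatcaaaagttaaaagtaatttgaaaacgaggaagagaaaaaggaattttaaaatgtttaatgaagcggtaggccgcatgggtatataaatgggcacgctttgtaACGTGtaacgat
ADH1: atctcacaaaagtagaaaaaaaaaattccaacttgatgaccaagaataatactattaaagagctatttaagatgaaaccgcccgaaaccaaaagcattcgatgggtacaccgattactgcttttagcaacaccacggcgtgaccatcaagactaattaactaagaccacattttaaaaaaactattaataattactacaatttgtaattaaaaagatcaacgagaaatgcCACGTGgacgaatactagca
GEA6 had 3 matches, at 74, 39 and 38 bases before the start, the last 2 being the overlapping strands of 1 palindromic CACGTG. KIN1 had 1 match, at 150 bases. HAI2 had 4, at 239, 165, 160 and 12 bases, and ADH1 had 2, at 20 and 19 bases, again both strands of a single CACGTG. These letters are a description of the stretch and not a measured site of binding.

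The labels were checked on the targeted transcript. SYD stood at 185 and 184 CPM in the control line in ethanol, at 99.6 and 108 CPM in amiR-SYD-1 and at 94.5 and 108 CPM in amiR-SYD-2. On ABA it stood at 194 and 244, 143 and 153, and 123 and 145 CPM in the same order. SYD fell in the SYD lines by 0.81 on the log2 scale (SE 0.08, adjusted p = 1.4e-06) in ethanol and by 0.58 (SE 0.08, adjusted p = 3.7e-05) on ABA, in edgeR's quasi-likelihood test with Benjamini-Hochberg adjustment over 19612 genes, and no SYD library reached the control. BRM differed by -0.02 (adjusted p = 0.88) and 0.08 (adjusted p = 0.32). Library totals ran from 18713555 to 30012796 counts. The summed level of 8 endosperm markers lay between 3645 and 5135 CPM in the control line in ethanol, where both SYD lines lay between 3366 and 4346. On ABA it was 4098 to 4603 in the control, 4580 to 4856 in amiR-SYD-1 and 5572 to 5807 in amiR-SYD-2. Of 7 seed coat markers the sum was lower in both SYD lines: 64.5 to 71.1 CPM in the control in ethanol against 37.3 to 43.7, and 44.6 to 48 on ABA against 28.9 to 37.8. The sum of 6 embryo markers was 202 to 331 CPM in the control in ethanol against 162 to 214, and 1016 to 1117 on ABA against 991 to 1312. The sum of 9 shoot meristem and leaf markers was higher in the SYD lines in ethanol. It was 2350 to 2551 CPM in the control, 3286 to 3592 in amiR-SYD-1 and 2792 to 3179 in amiR-SYD-2. On ABA it was 2034 to 2090, 2147 to 2197 and 2315 to 2660 CPM. The sum of 10 root tip and epidermis markers was 172 to 173, 192 to 215 and 160 to 174 CPM in ethanol and 152 to 169, 166 to 172 and 156 to 159 CPM on ABA. No marker on these lists was at 0 in every library, and the part of these shifts in the members' values was not tested.

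Membership depended on the libraries. The 2 control libraries on ABA were the least alike pair, with a chi-square per degree of freedom of 13.3 between replicates against 2.4 to 9.03 in the other 5 groups. Without the control ABA replicate 1 the rule found 120 genes, which included 68 of the 69 members. Without replicate 2 it found 59, of which 50 were members. Leaving out each of the 12 libraries in turn, 34 members were chosen every time.

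The rule was also applied in 1 replicate and read in the other, which it had not used. The gap between R of the control and the larger R of the SYD lines is called the shortfall. The 59 genes chosen in replicate 1 had a median shortfall of 1.06 there and 0.85 in replicate 2, with 56 of 59 above 0 and 33 meeting the whole rule again. The 124 genes chosen in replicate 2 had a median of 1.07 there and 0.44 in replicate 1, with 97 above 0. The genes meeting the whole rule in both replicates are the same 33 in either direction, so they count once. Among the other genes induced in the replicate used for the choice, 74% of 577 and 44.4% of 723 were above 0 in the other replicate. The replicates of a group are separate samples by their labels, and these values show how much of the gap came back in them.

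ABA raised the members by a median R of 2.31 in the control line (range 1.03 to 6.15), 0.94 in amiR-SYD-1 (-0.95 to 4.51) and 0.87 in amiR-SYD-2 (-0.39 to 4.98). For the 635 other genes induced in the control the medians were 1.53, 1.36 and 1.27. In most members R was not below 0 in either SYD line, though an R above 0 is by itself no call of induction. In 29 members both SYD lines had R of 1 or more, and in 25 both lay between 0 and 1. In 7 both were below 0, in 5 only 1 line was below 0, and 3 were mixed in other ways. Induction passed the edgeR test in all 69 members in the control (26.9% of all tested genes rose there), in 44 in amiR-SYD-1 (21.7% of all) and in 48 in amiR-SYD-2 (19.4% of all). The rule used these contrasts, so nothing is read from the counts. All 69 passed the filter on low counts, and 32 had a mean under 10 CPM on ABA in the control.

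**Figure D1:**
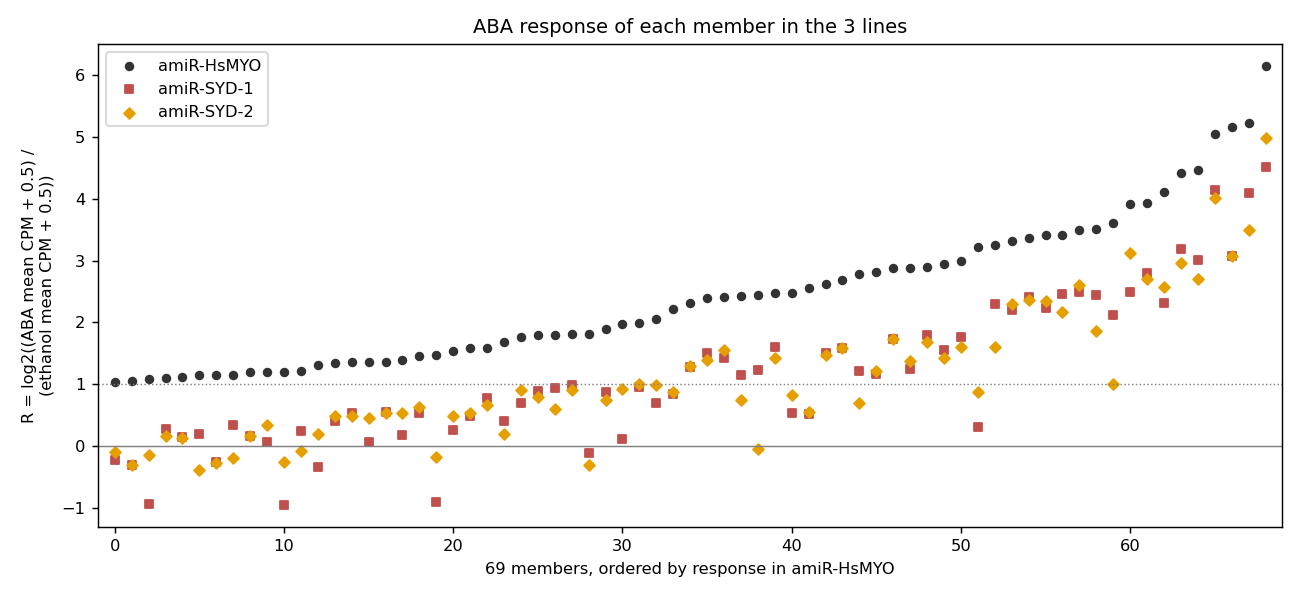
ABA response R (log2 units) of each of the 69 members in the 3 lines, ordered by the control line; the dotted line marks an R of 1. The SYD points lie at least 0.8 below the control by construction, and most stay above 0.

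A smaller response can come from a lower level on ABA or from a higher level without it, and both were seen. Taking a difference of 0.4 in log2(CPM + 0.5), a value chosen after the levels were seen, 32 members were lower in the SYD lines on ABA, 27 were higher in the SYD lines in ethanol, and 10 were both. In the first set the control exceeded the SYD mean on ABA by a median of 1.45, while the SYD mean minus the control in ethanol had a median of -0.235. In the second set the SYD mean exceeded the control in ethanol by a median of 1.23, while the levels on ABA differed by a median of 0.02. All 4 SYD libraries on ABA lay below both control libraries in all 32 members of the first set, and in 45 of the 69 members (28.8% of all tested genes). All 4 SYD libraries in ethanol lay above both control libraries in all 27 members of the second set, and in 37 of the 69 (21.3% of all). By the edgeR test 43 members were lower on ABA in the SYD lines (15.9% of all) and 7 higher (16.8%), and in ethanol 34 were higher (17.7%) and 7 lower (14.5%). The rule and the sets were built from these same levels, so neither the separation of the libraries nor these counts adds anything to the choice.

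**Figure D2:**
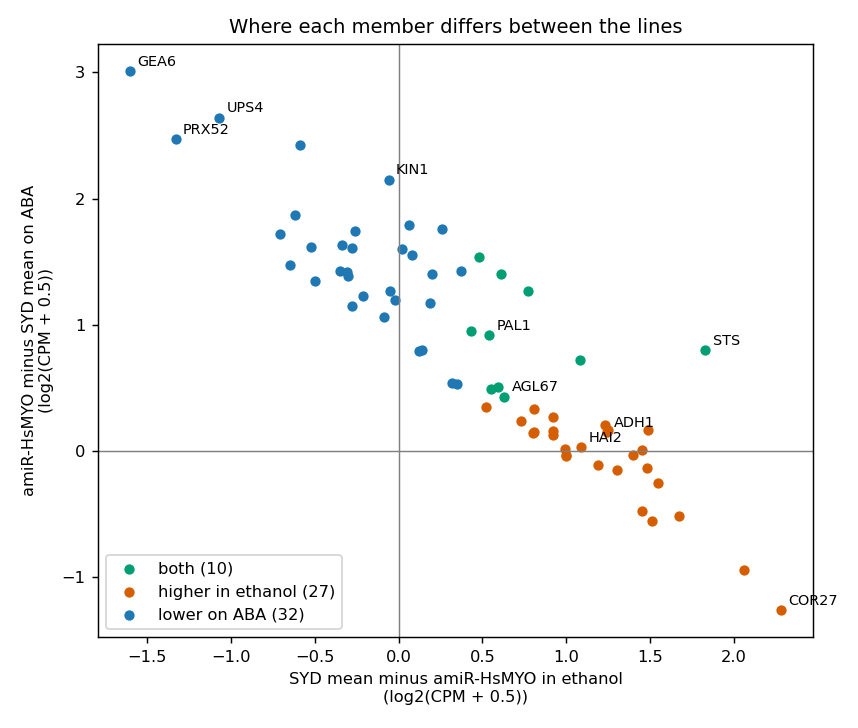
Difference between the SYD mean and the control in ethanol (x) and between the control and the SYD mean on ABA (y), in log2(CPM + 0.5), for each of the 69 members, coloured by set. GEA6, UPS4 and PRX52 lie at the upper left, low in the SYD lines in both treatments, and COR27 at the lower right, high in the SYD lines in both.

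The members lower on ABA included the largest control R of all members, 6.15 in GEA6. The edgeR fit gave larger control responses for KIN1 (7.07) and for AT1G47980 (6.92, in another set) than for GEA6 (6.27). GEA6, a late embryogenesis abundant (LEA) protein of the dry seed also called EM6, stood at 8.74 and 3.45 CPM in the control in ethanol and at 472 and 467 CPM on ABA. It went from 2.4 and 1.7 to 67 and 48.3 CPM in amiR-SYD-1, and from 1.75 and 0.978 to 65.6 and 51.2 CPM in amiR-SYD-2. The gene was still strongly induced in both SYD lines, but all their libraries were below those of the control in both treatments, and the mean on ABA was 8.1-fold lower. KIN1, a small hydrophilic protein of cold and drought responses, rose from 0.177 and 0.163 to 25.6 and 21.4 CPM in the control. It reached 5.47 and 4.18 CPM in amiR-SYD-1 and 5.71 and 4.34 CPM in amiR-SYD-2 from 0.24 CPM or less, 4.77-fold lower on ABA than the control. KIN2, its close relative, is no member. It stood at 64.6 and 64.9 CPM on ABA in the control, against 51.9 and 52.1 in amiR-SYD-1 and 57.7 and 55.4 in amiR-SYD-2. The split of reads between 2 such similar genes depends on the counting and was not measured here.

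SMP1 and AT3G22490 are annotated as seed maturation proteins. SMP1 stood at 19.2 and 20.4 CPM on ABA in the control and between 6.03 and 9.86 CPM in the 4 SYD libraries. AT3G22490 averaged 17.5 CPM over the 2 control libraries on ABA, which nearly coincided, and between 3.66 and 7.09 CPM in the SYD libraries. Both had 1.15 CPM or less in every ethanol library, so their ethanol levels rest on few reads. AT1G54870, a Rossmann-fold protein, had 112 and 104 CPM on ABA in the control, 44.4 and 51.8 CPM in amiR-SYD-1 and 29.2 and 19.9 CPM in amiR-SYD-2. AT1G68250, of unknown function, had 399 and 393 CPM on ABA in the control against 162 to 241 CPM in the SYD libraries. Taken by replicate, the gap between R of the control and the larger SYD R was 0.06 in replicate 1 and 1.74 in replicate 2. For SMP1 it was -0.14 and 1.51. Of SMP1, AT3G22490, AT1G54870 and AT1G68250, only AT1G54870 passed the edgeR test in the difference in response. AT1G47980, annotated as a desiccation-like protein, was not in this set. It stood on ABA at 26.9 and 26 CPM in the control, 23 and 51.2 CPM in amiR-SYD-1 and 15.3 and 12.5 CPM in amiR-SYD-2. By the mean of the SYD lines it was placed in the set higher in ethanol. On ABA amiR-SYD-2 was below the control, and amiR-SYD-1 lay on both sides of it. The fitted difference of the SYD mean from the control in ethanol, 2.49 (SE 1.01), did not pass the edgeR test.

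Transporters and a cell wall peroxidase had, with GEA6, the 5 largest folds between the lines on ABA. UPS4, a ureide permease, stood at 9.73 and 12.9 CPM on ABA in the control and between 1.18 and 1.65 CPM in the SYD libraries, 8.13-fold lower. SIAR1, an amino acid exporter also named UMAMIT18, stood at 19.1 and 18.4 CPM on ABA in the control and between 2.43 and 3.75 CPM in the SYD libraries, 6.04-fold lower. ABCG16, an ABC transporter, had 2.43 and 2.9 CPM on ABA in the control and 0.317 to 0.735 CPM in the SYD libraries. Each of these transporters was also lower in the SYD lines in ethanol. The fitted log2 difference there was -1.98 (SE 0.39) for UPS4, -0.72 (SE 0.24) for SIAR1 and -1.27 (SE 0.4) for ABCG16. The difference in response passed the edgeR test in SIAR1 and not in UPS4 or ABCG16. PRX52, a secreted peroxidase linked to lignin, rose from 10 and 8.45 to 68.2 and 74.4 CPM in the control. In amiR-SYD-1 it went from 4.06 and 3.87 to 15.6 and 13.3 CPM, and in amiR-SYD-2 from 2.27 and 3.41 to 11.7 and 9.63 CPM, so it too was lower in both treatments. TBL38, of a family that acetylates cell wall polysaccharides, differed in form. It rose from 4.46 and 4.35 to 15.4 and 18.1 CPM in the control and did not rise in either SYD line, where its R was -0.11 and -0.30. Its 8 SYD libraries, in both treatments, ranged only from 4.1 to 6.74 CPM.

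Enzymes at the entry of phenylpropanoid synthesis were also among the members. 4CL2, a 4-coumarate:CoA ligase, rose from 1.59 and 1.87 to 4.43 and 4.83 CPM in the control. It went from 3.42 and 2.65 to 1.32 and 1.33 CPM in amiR-SYD-1 and from 2.08 and 1.63 to 1.82 and 1.13 CPM in amiR-SYD-2, so its libraries on ABA were below those in ethanol in amiR-SYD-1 and overlapped them in amiR-SYD-2. PAL1, a phenylalanine ammonia-lyase, rose from 8.3 and 7.27 to 32.2 and 32.2 CPM in the control. It stood between 15.3 and 17.9 CPM in the SYD libraries on ABA. In ethanol it was at 18.4 and 12.7 CPM in amiR-SYD-1 and at 7.86 and 9.09 CPM in amiR-SYD-2. MYB15, a transcription factor that activates lignin genes in immunity, rose from 0.795 and 0.65 to 2.23 and 3.57 CPM in the control. It lay between 0.405 and 0.859 CPM in the SYD libraries on ABA and between 0.833 and 1.96 CPM in ethanol. By the mean of the SYD lines, PAL1 and MYB15 were placed in the set both lower on ABA and higher in ethanol. For PAL1 the excess in ethanol was in amiR-SYD-1, and the libraries of amiR-SYD-2 overlapped those of the control. For MYB15 the fitted difference in ethanol, 0.75 (SE 0.35), did not pass the edgeR test. FRK1, a receptor kinase induced by bacterial flagellin, stood at 2.8 and 3.1 CPM on ABA in the control and between 0.507 and 0.908 CPM in the SYD lines. The related PAL2, PAL3, PAL4, 4CL1, 4CL3 and 4CL5 were not members. 4CL1 missed only the bound on the control, with R of 0.88 there, -0.7 in amiR-SYD-1 and -0.05 in amiR-SYD-2. 4CL3 went the other way, with R of -0.91, -0.3 and 0.27. The shortfall was 0.53 in PAL2, 0.51 in PAL3, 0.3 in PAL4 and -0.08 in 4CL5. These genes were grouped after their values were seen.

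One annotated family held several members. Of 5 genes whose product carries the domain of unknown function DUF1264, 3 were members: AT1G05510, AT2G31985 and AT5G45690. Of these only AT1G05510 passed the edgeR test in the difference in response. AT1G29680, at a mean of 1.09 CPM on ABA in the control, had R of 1.49 in the control, 1.58 in amiR-SYD-1 and 0.07 in amiR-SYD-2. For AT4G18920 these were 3.03, 2.83 and 2.58, so the family did not share a smaller response in both SYD lines. AT1G05510 is named OBAP1a, an oil body-associated protein. It rose from 1.1 and 0.284 to 14.5 and 13.6 CPM in the control and reached 9.37 and 12 CPM in amiR-SYD-1 but only 3.59 and 1.9 CPM in amiR-SYD-2. AT5G45690 reached 13.6 and 12.9 CPM in the control, 9.93 and 10.5 CPM in amiR-SYD-1 and 5.28 and 3.21 CPM in amiR-SYD-2. In both genes every SYD library on ABA was below the control, and amiR-SYD-2 was the lower of the SYD lines. This family was singled out after its values were seen.

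The set higher in ethanol was defined by a control excess on ABA of less than 0.4, so levels near or above the control there are part of its definition. HAI2, a clade A PP2C and so a negative regulator of ABA signalling, stood at 1.99 and 1.99 CPM in the control in ethanol, at 5.5 and 4.82 CPM in amiR-SYD-1 and at 4.5 and 4.38 CPM in amiR-SYD-2. On ABA the 6 libraries lay between 24.2 and 27.2 CPM and the lines overlapped. SPS3F, a sucrose phosphate synthase, stood at 15.2 and 13.6 CPM in the control in ethanol and between 26.6 and 34.3 CPM in the SYD libraries, and between 145 and 161 CPM in all 6 libraries on ABA. AT4G11040, a PP2C-family protein named RDO5 that promotes seed dormancy, rose in the control from 18.1 and 16.4 to 39.6 and 38.4 CPM. It stood at 43.8 and 44.2 CPM in ethanol in amiR-SYD-1 and at 41.1 and 37.6 CPM in amiR-SYD-2, so without ABA it was already about where the control was with it. Its R was -0.26 in amiR-SYD-1 and -0.27 in amiR-SYD-2.

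ADH1, the alcohol dehydrogenase of ethanol fermentation, stood at 43 and 51.2 CPM in the control in ethanol, 98.5 and 98.1 in amiR-SYD-1 and 164 and 90.8 in amiR-SYD-2. On ABA it was at 153 and 153, 121 and 139, and 138 and 154 CPM. The replicates of amiR-SYD-2 in ethanol differed by more than those of any other group, yet both were above the control. AT1G19530 and AT1G19540 are neighbours on chromosome 1 (6763765 to 6765049 and 6765653 to 6768290, TAIR10.1), the only adjacent members, and both were higher in ethanol. AT1G19530 stood at 6.62 and 10.6 CPM in the control in ethanol against 20.3 to 29.5 CPM in the SYD libraries, and AT1G19540 at 5.47 and 6.54 CPM against 16.9 to 20. Reads of neighbouring genes can be miscounted where transcripts overlap, which was not measured here.

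Of 12 circadian clock genes grouped after their values were seen, ELF4, BOA and COR27 were members, all in this set. ELF4, a component of the evening complex, stood at 7.77 and 8.65 CPM in the control in ethanol and between 22.5 and 30.8 CPM in the SYD libraries. It was higher in the SYD libraries on ABA too, at 30.9 to 39.1 CPM against 25.3 and 24.2. COR27, a cold-regulated clock repressor, had the same form, with 0.839 and 0.894 CPM against 4.33 to 8.98 in ethanol and 3.87 and 4.63 against 8.41 to 13 on ABA. For both genes a higher level in both treatments, and not a lower level on ABA, went with the smaller response. The other clock genes were ELF3, PCL1, TOC1, GI, CCA1, LHY, PRR5, PRR7 and PRR9, and they did not all move alike. In PCL1, TOC1, GI, PRR5 and PRR9 all 4 SYD libraries in ethanol lay above both control libraries, as in 21.3% of all tested genes. PRR5 had means of 10.3 and 12 CPM in the SYD lines in ethanol against 4.71 in the control. LHY was lower in all 4 SYD libraries, with means of 50 and 35.5 CPM against 77.6. The libraries overlapped in CCA1, PRR7 and ELF3, the last with means of 103 and 94.8 CPM against 93.8. FLC, the MADS-box repressor of flowering, stood at 1.28 and 1.3 CPM in ethanol in the control and between 1.92 and 2.23 CPM in the SYD libraries, and was among the members nearest the threshold. AT2G26355 was the only member that is not protein coding. This long non-coding RNA stood at 7.2 and 7.92 CPM in ethanol in the control against 17.2 to 21.8 CPM in the SYD libraries, and at 52.3 and 66.6 against 58.4 to 74.5 CPM on ABA.

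**Figure D3:**
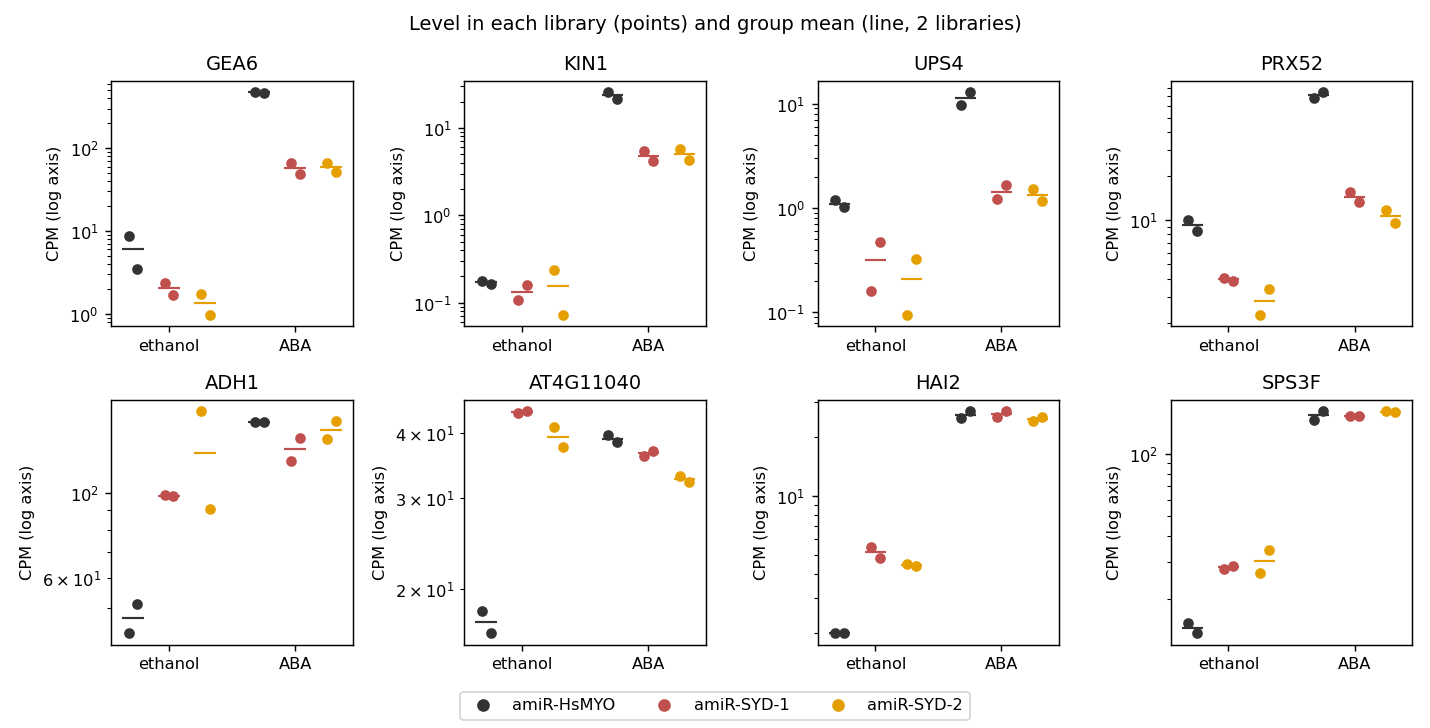
CPM on a log axis in each of the 12 libraries for 4 members lower in the SYD lines on ABA (top) and 4 higher in the SYD lines in ethanol (bottom); points are libraries and lines group means. In the top row the SYD points on ABA lie below the control, and in the bottom row the SYD points in ethanol lie above it.

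STS, a stachyose synthase of the raffinose family sugars that seeds store, had the largest shortfall, 2.35. It rose from 0.177 and 0.244 to 6 and 6.24 CPM in the control. In ethanol it was already at 3.1 and 2.38 CPM in amiR-SYD-1 and 1.75 and 1.16 CPM in amiR-SYD-2, and on ABA it stood at 2.58 and 4.45 and at 3.16 and 2.98 CPM. The gene was thus higher than the control in ethanol and lower on ABA. AGL67, a MADS-box factor, was placed in the same set: 8.79 and 7.43 CPM in the control in ethanol against 9.71 to 17.1, and 72.9 and 96.3 CPM on ABA against 50.9 to 77.9. On ABA the libraries of amiR-SYD-1, at 75.7 and 77.9 CPM, lay between those of the control.

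At the edge of the rule the shortfall was 0.81 in AT2G01610, FLC and AT5G66260 and 0.80 in SMP1, all inside. Just outside were PUB19 at 0.80, AT5G35735 and AT1G04973 at 0.79 and HMT3 at 0.78. Added to every mean, 0.5 CPM weighs most on genes with few reads. In the count model, which adds no such constant, the difference in response between the SYD mean and the control was negative in all 69 members (median -1.20, range -4.07 to -0.27). It passed the test as lower in 47 of them and as higher in 0 (2.45% and 2.69% of all tested genes), a comparison the rule used. Of the 22 that did not pass, 20 had under 1.5 CPM in the control in ethanol. GEA6, KIN1 and UPS4 were among these 22, with fitted differences of -1.13 (SE 0.42), -1.97 (SE 0.77) and -0.98 (SE 0.48).

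The SYD lines were compared with each other because the rule set no direct bound on this contrast, although it limited the response of each line. On ABA 55 of the 69 members, or 79.7%, differed by less than 0.5 on the log2 scale, against 91.2% of all tested genes. Members lower in amiR-SYD-2 numbered 35, or 50.7%, against 49.6% of all, and the range of amiR-SYD-2 minus amiR-SYD-1 was -2.07 to 2.44. The edgeR test called 5 members (0.846% of all tested genes). Membership needed a low response in both SYD lines, which bears on how alike these lines could be. AT3G01345, an uncharacterized protein, was higher in amiR-SYD-2 by 2.44 (SE 0.28, adjusted p = 0.0007), with 14.3 and 18.8 CPM against 2.28 and 3.81, and this held without any 1 library. In ethanol it was higher by 2.85 (SE 0.29, adjusted p = 0.00021), so it marked amiR-SYD-2 in both treatments. NIT2, a nitrilase, was lower in amiR-SYD-2 by -2.07 (SE 0.33, adjusted p = 0.006), with 0.692 and 0.588 CPM against 2.28 and 3.17. AT1G05510 was lower by -1.94 (SE 0.33, adjusted p = 0.0086), AT1G47980, a desiccation-like protein, by -1.40 (SE 0.3, adjusted p = 0.036), and AGL67 by -0.57 (SE 0.09, adjusted p = 0.0058). Each of these 4 calls ended without 1 library. Without amiR-SYD-1 ABA replicate 2 the adjusted p was 0.11 for NIT2, 0.13 for AT1G05510, 0.64 for AT1G47980 (then -0.72) and 0.075 for AGL67. Without amiR-SYD-2 ABA replicate 2 it was 0.12, 0.19, 0.43 and 0.11, and only AT3G01345 was then called in either case. AT1G47980 and AGL67 also ended without amiR-SYD-2 ABA replicate 1 (0.14) and amiR-SYD-1 ABA replicate 1 (0.056), respectively.

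In ethanol 3 members were called between the SYD lines (0.688% of all). Besides AT3G01345, PAL1 was lower in amiR-SYD-2 by -0.86 (SE 0.15, adjusted p = 0.018), with 7.86 and 9.09 CPM against 18.4 and 12.7, and AGL67 by -0.68 (SE 0.12, adjusted p = 0.018), with 9.71 and 10.4 against 15.6 and 17.1 CPM. Without amiR-SYD-1 ethanol replicate 1 the call ended for PAL1 (-0.55, adjusted p = 0.3) and for AGL67 (adjusted p = 0.13). It also ended without either amiR-SYD-2 ethanol library for PAL1 (adjusted p = 0.059 and 0.077) and for AGL67 (0.052 and 0.11), and without amiR-SYD-1 ethanol replicate 2 for AGL67 (0.14). The size of the ABA response itself differed between the SYD lines in 0 members by edgeR (0% of all genes) and 0 by DESeq2, with 5 at an unadjusted p under 0.05 in edgeR (4.29% of all). The fitted differences ran from -1.78 in NIT2 to 1.29, so differences of that size are not excluded for single genes at 2 libraries a group.

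**Figure D4:**
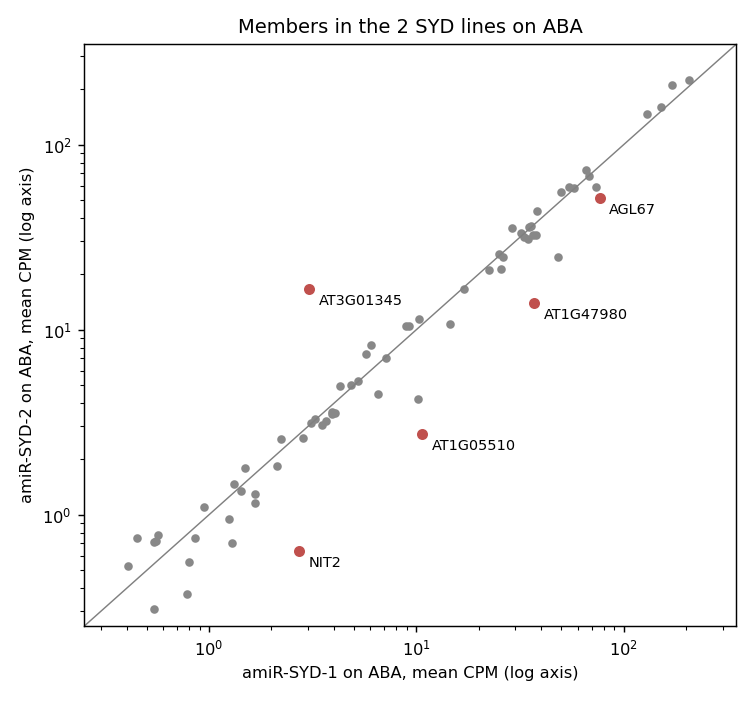
Mean CPM of the 69 members on ABA in amiR-SYD-1 (x) and amiR-SYD-2 (y), both on log axes, with the line of equality; red points are the 5 members called between these lines. Most points lie near the line, with AT3G01345 above it and NIT2, AT1G05510, AT1G47980 and AGL67 below.

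Of 17 lists of genes tied to ABA, seeds and stress, with 286 genes in all, 8 members stood in any: GEA6, ADH1, PRX52, HAI2, ST2A, KIN1, STS and FRK1. By the number of genes called in the response difference as lower, the list around ADH1 came first. Of 14 genes of fermentation and the low-oxygen response, 12 rose and 1 fell in the SYD lines in ethanol (edgeR), with a median of 1.06 on the log2 scale, where 3476 of 19612 genes rose and 2835 fell with a median of 0.01. Both counts include ADH1. The other genes that rose included SUS4, a sucrose synthase, by 2.09 (SE 0.22, adjusted p = 3.8e-06), from a mean of 7.66 CPM in the control to 30.6 and 33.5 CPM. PDC3, a pyruvate decarboxylase, rose by 2.18 (SE 0.17, adjusted p = 2e-07), from 1.57 CPM to 8.01 and 6.01 CPM. AT3G10040 (HRA1), a repressor within the low-oxygen response, rose by 1.07 (SE 0.12, adjusted p = 7.8e-06) from 50.3 to 101 and 105 CPM, and AT5G39890 (PCO2), an oxygen-sensing cysteine oxidase, by 0.91 (SE 0.07, adjusted p = 1.4e-07) from 41.1 to 70.7 and 79.4 CPM. ACBP1, an acyl-CoA binding protein, fell by 0.31 (SE 0.08, adjusted p = 0.012), a call that ended without the control ethanol replicate 1 (-0.22, adjusted p = 0.18). On ABA 4 of the 14 were higher and 3 lower in the SYD lines, with a median of 0.13.

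In the difference in response 7 of these 14 genes were lower in the SYD lines and 0 higher (2.45% and 2.69% of all tested genes). The median was -0.94, against -0.02 for all genes. The 7 were ADH1, AT4G33070 (PDC1), HB1, AT5G15120 (PCO1), AT5G39890, AT3G10040 and SRO5. ADH1 was chosen by the rule for this difference, so its call adds nothing to the count. AT4G33070, the pyruvate decarboxylase before ADH1 in the pathway, differed by -1.49 (SE 0.22, adjusted p = 0.001). It is no member because ABA lowered it in every line, from 39 to 28 CPM in the control, from 62.8 to 17.7 in amiR-SYD-1 and from 97.3 to 22.3 in amiR-SYD-2. HB1, a non-symbiotic haemoglobin, differed by -1.05 (SE 0.14, adjusted p = 0.00055), with 121 and 119 CPM in the control, 186 and 76.9 in amiR-SYD-1 and 205 and 110 in amiR-SYD-2 (ethanol and ABA means). The call for SRO5 (-0.93, adjusted p = 0.0093) ended without the control ethanol replicate 1 (adjusted p = 0.056).

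**Figure D5:**
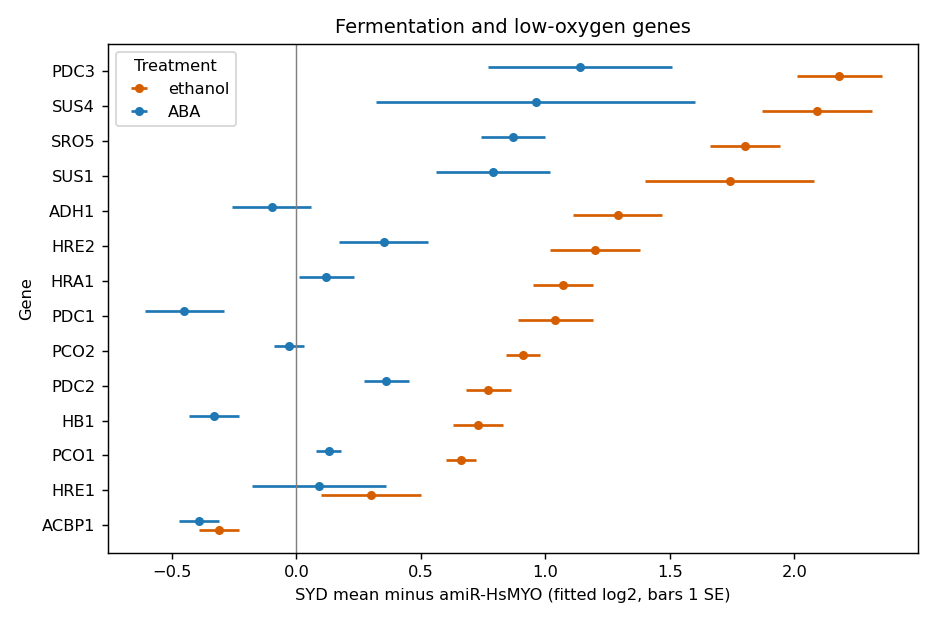
Fitted log2 difference of the SYD mean from the control in ethanol (orange) and on ABA (blue) for 14 genes of fermentation and the low-oxygen response; bars are 1 SE. Points in ethanol lie above 0 in all but ACBP1, and on ABA they lie on both sides of 0.

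HAI2, 1 of the 9 clade A PP2Cs, was chosen by the rule for its lower response in the SYD lines. Of the 9, 3 had a lower response and 0 a higher one (2.45% and 2.69% of all tested genes), with a median of -0.22. Besides HAI2 these were ABI1, at -0.71 (SE 0.13, adjusted p = 0.0054), and HAI3, at -0.80 (SE 0.16, adjusted p = 0.0087), the latter not called without the control ethanol replicate 2 (-0.62, adjusted p = 0.1). ABI1 was lowered by ABA and so no member: it went from 90.6 to 56.4 CPM in the control, from 224 to 86.2 CPM in amiR-SYD-1 and from 210 to 78.4 CPM in amiR-SYD-2. HAI3 rose from 4.63 to 77 CPM in the control, from 7.4 to 67.1 CPM in amiR-SYD-1 and from 5.8 to 58.5 CPM in amiR-SYD-2. The LEA list, which holds GEA6, went the other way in 3 of 15 tested genes and the same way in 1, with a median of 0.09. GEA6 itself was not called. Of 14 tested dehydration and cold genes, which include KIN1 and KIN2, 2 had a higher and 1 a lower response, with a median of -0.15. Neither KIN1 nor KIN2 was called.

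The promoters of the members were like those of other induced genes in the ABA element. In the window from 250 bases before to 50 after the start, ACGTG on either strand was present in 52.9% of 68 protein-coding members (exact 95% interval 40.4 to 65.2%), in 52.8% of 602 other induced genes and in 26.7% of 27443 genes. It was present in 50% of the members lower on ABA and in 46.2% of those higher in ethanol. CATGCA, the core of the RY element of seed genes, was in 27.9% of members (17.7 to 40.1%), 105 of 602 other induced genes and 9.72% of all. TTGAC, the core of the W-box, was in 58.8% (46.2 to 70.6%), 46.3% and 50.5%. GGCCCA was in 5.88% of members (1.63 to 14.4%), 13.3% of other induced genes and 15.5% of all, and in 0 of the 32 members lower on ABA (upper bound 10.9%). The members' interval held the share of the other induced genes for the ABA element, the W-box and GGCCCA, and began just above it for the RY core. In the 250 bases before the start alone, the RY core was in 25% of members (15.3 to 37%) and 15.6% of other induced genes, so that separation ended with the shorter window. The other 5 of the 9 motifs searched, on both strands, were as follows. The G-box CACGTG, which holds the ABA element on both strands, was in 30.9% of members, 29.7% of other induced genes and 7.68% of all. The dehydration element core CCGAC was in 22.1%, 22.8% and 15%, the evening element AAAATATC in 7.35%, 10.6% and 6.89%, and AAACCCTA in 1.47%, 1.99% and 6.22%. The heat shock element GAANNTTC was in 10.3%, 11% and 11.6%. Members were spread over the 5 chromosomes (20, 13, 15, 6 and 15 genes, against 192, 112, 133, 107 and 160 induced genes). Their median gene span was 1889 bp, against 1923 bp in other induced genes, and 25% had a single exon, against 18.8%.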

How the data were processed

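RNA-seq counts of 12 libraries were used. The authors deposited raw, unnormalised counts, 1 column a library. The submitters' processing notes name Trimmomatic 0.39, STAR 2.7.10a and the TAIR10 build. The tool and strand setting used for counting were not found in the labels or the file, so counts of overlapping, antisense or near-identical genes are uncertain. CPM and R were computed from the deposited counts as described above. Tests used edgeR 4.0.16 in R 4.3.3: filterByExpr with a minimum count of 10 (19612 genes), TMM, 1 mean per group over all 12 libraries, the quasi-likelihood F-test, 2-sided, Benjamini-Hochberg adjustment over all tested genes and a threshold of 0.05. TMM moved contrasts by at most 0.051 on the log2 scale against plain library totals. Totals per library ran from 18713555 to 30012796, where 3 counts are 0.1 to 0.16 CPM, counting error only.

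Replicates are separate biological replicates by their labels; the tests do not pair the replicate numbers. Reading the rule in a single replicate did combine same-numbered libraries of each group, which the labels do not pair, as did the replicate block. Alternatives were DESeq2 1.42.0, RLE size factors, no filter, a replicate block and leaving out each library. The members, lists, the 0.4 limit and the grouping of members were chosen with earlier results of these data known. Named genes were, by rule, the members with the largest shortfalls, the highest levels on ABA, those on a list, those at the edge of the rule, those with the lowest SYD responses or closest ABA levels, and those called between the SYD lines; others were chosen after their values were seen. From the 17 lists, 10 symbols had no match and 7 were dropped because the reference gives them to another gene. Promoters and gene positions come from the RefSeq TAIR10.1 annotation, which matched 36632 of 36795 genes.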

Additional observations from a re-analysis of the deposited data

Results flagged for a closer look

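The ABA response of the SYD lines differed from that of the control in 47 of the 69 members by the interaction test (edgeR, adjusted p under 0.05), all of them lower in the SYD lines, against 2.45% of all tested genes. The members were chosen for this difference, so the count describes the choice and is not evidence for it.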

How the results depend on the processing

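The number of genes meeting the rule was 69. It was 42 with 2 CPM added in place of 0.5, 42 with a shortfall of at least 1, 122 with at least 0.6, 37 with at least 10 CPM on ABA, and 59 to 120 when 1 library was left out. With CPM on the TMM scale it was 62, and with 0.1 CPM added 91.

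Between the SYD lines on ABA, 5 members were called. The count was 3 by DESeq2, 11 without the low-count filter, 8 with the replicate block and 1 to 6 when 1 library was left out. In ethanol the 3 calls became 11 without the filter and 1 to 4 when 1 library was left out. For the response difference between the SYD lines the 0 calls became 2 without the filter and stayed at 0 under the replicate block. The labels do not pair the replicate numbers, and residuals of same-numbered libraries correlated between -0.03 and 0.15.

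Members called in the response difference from the control numbered 47, and 38 to 47 when 1 library was left out. Alternatives for the lists were chosen after seeing the data: 53 list genes were called in that difference, 90 without the filter and 36 to 64 when 1 library was left out. The low-oxygen list had 12 genes higher in ethanol in every alternative, and 7 to 9 lower in the response difference when 1 library was left out. The SYD transcript fell by 0.84 to 0.78 on the log2 scale in ethanol and by 0.69 to 0.46 on ABA.

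Of 1040 settings for 65 results on named genes, 970 left the call as it was, 52 lost it, 14 gained it and 4 turned the sign. The response difference of AT3G22490 ran from -1.85 to 0.06 when 1 library was left out, the latter without amiR-SYD-2 ethanol replicate 1. That of AT2G01610 ran from -0.71 to 0.22: it became 0.09 without amiR-HsMYO ethanol replicate 2, 0.04 without amiR-SYD-1 ABA replicate 2 and 0.22 without amiR-SYD-1 ethanol replicate 1. Neither gene passed the test with all libraries, and the cause was not tested. With 2 libraries a group and 32 members under 10 CPM, single members are measured with limited precision.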
